A study of Mus musculus with 9 samples.

Results

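miR-126a is a small RNA of blood vessel lining. Its hairpin, mir-126a, lies within Egfl7, a gene that encodes a secreted protein of endothelial cells, and gives a 3p and a 5p mature arm. Both arms, mmu-miR-126a-3p and mmu-miR-126a-5p, were followed by name as the 2 members described here, out of 1915 names of mature miRNAs counted in milk fat. Each arm had 1 row in the table, so no row had to be chosen.

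A mature miRNA guides the silencing complex to messenger RNAs that pair with its seed, bases 2 to 8. In endothelial cells the 3p arm is known to repress Spred1 and Pik3r2, which restrain growth factor signalling from VEGF, and thereby to support vessel integrity. The 5p arm is known in mouse endothelium for repressing Dlk1, an inhibitor of Notch signalling. Milk fat globules are released by secretory epithelial cells, wrapped in their membrane with some cytoplasm, so an endothelial miRNA is not a product expected of the cell that makes them. Platelets and early blood progenitors also hold miR-126, which limits its use as a marker of endothelium alone.

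The 9 libraries came from 9 female ICR (CD1) mice nursing their first litter, 1 per dam, and were made from washed milk fat of lactation day 10. The high-fat group of 4 dams ate a diet with 60% of its energy as fat (5.24 kcal per g), and the control group of 5 dams one with 10% (3.85 kcal per g). Sucrose gave 7% of the energy in both diets, which began at 4 weeks of age, 4 weeks before mating, and lasted through pregnancy and lactation. Before mating the dams were caged by twos with a dam of the same diet, and cage entered no fit. Age at milk collection was not used here.

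The sequences show which letters were counted and what else the locus could give. Of the 2 arms, mmu-miR-126a-3p had an entry in the RefSeq table (GRCm38.p6), and the hairpin is given with it. Capitals mark the seed in the mature miRNAs and the whole 3p arm, positions 46 to 67 of 73, in the hairpin.
mmu-miR-126a-3p: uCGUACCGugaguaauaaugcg
mmu-mir-126a hairpin: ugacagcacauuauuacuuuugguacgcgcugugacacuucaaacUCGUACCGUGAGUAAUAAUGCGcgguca
mmu-miR-126b-5p: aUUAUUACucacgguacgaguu
mmu-miR-126b-3p: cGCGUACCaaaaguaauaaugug

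The hairpin lies on chromosome 2 at 26591357 to 26591429 on the plus strand (GRCm38), in an intron of Egfl7 that runs from 26591064 to 26591663 in most of the transcripts that span it. Of 19 annotated Egfl7 transcripts in GENCODE M21, 8 had the hairpin in an intron, 1 had it in an exon and 10 did not span it. A second annotated gene on the same strand, Gm20532, also spans the site. The hairpin of miR-126b sits on the opposite strand, at 26591363 to 26591420, and its 5p arm overlaps 19 bases of miR-126a-3p. Among 1679 mature mouse sequences in the RefSeq table, no other carried the seed of miR-126a-3p. The closest by ungapped alignment was miR-126b-3p, with 17 of 22 bases alike, and the next had 13.

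Levels are given in RPM, reads per 1000000 mature miRNA counts of the library, and the totals were 1905838 to 3897109 in high-fat and 837817 to 2750482 in control libraries. miR-126b gave almost no reads. miR-126b-3p had 0 counts in all 9 libraries, and miR-126b-5p had 1 count each in control libraries 1 and 2 and 0 elsewhere. With 0 counts, up to 3 are allowed, or 0.770 RPM in high-fat library 2, the deepest, and 3.58 RPM in control library 5, the shallowest.

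Reads of miR-126a itself were few. miR-126a-3p had 46, 16, 39 and 21 counts in high-fat libraries 1 to 4, and 26, 4, 20, 17 and 6 counts in control libraries 1 to 5. As a level this was 19.7, 4.11, 19.3 and 11.0 RPM in high-fat milk, against 15.4, 3.21, 7.27, 10.6 and 7.16 RPM in control milk. High-fat libraries 1 and 3 stood above every control, while high-fat library 2 stood below 4 of the 5, so the diets overlapped.

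miR-126a-5p had 22, 25, 15 and 18 counts in high-fat libraries 1 to 4, and 11, 4, 9, 4 and 0 counts in control libraries 1 to 5. Its level was 9.42, 6.42, 7.42 and 9.44 RPM in high-fat milk, against 6.53, 3.21, 3.27, 2.50 and 0 RPM in control milk. On this scale 3 of 4 high-fat libraries lay above every control, and high-fat library 2 lay just under control library 1. In control library 5 the mean of the other 4 controls, 3.88 RPM, would give only 3.25 counts, so the 0 there is near what this depth can show.

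**Figure D1:**
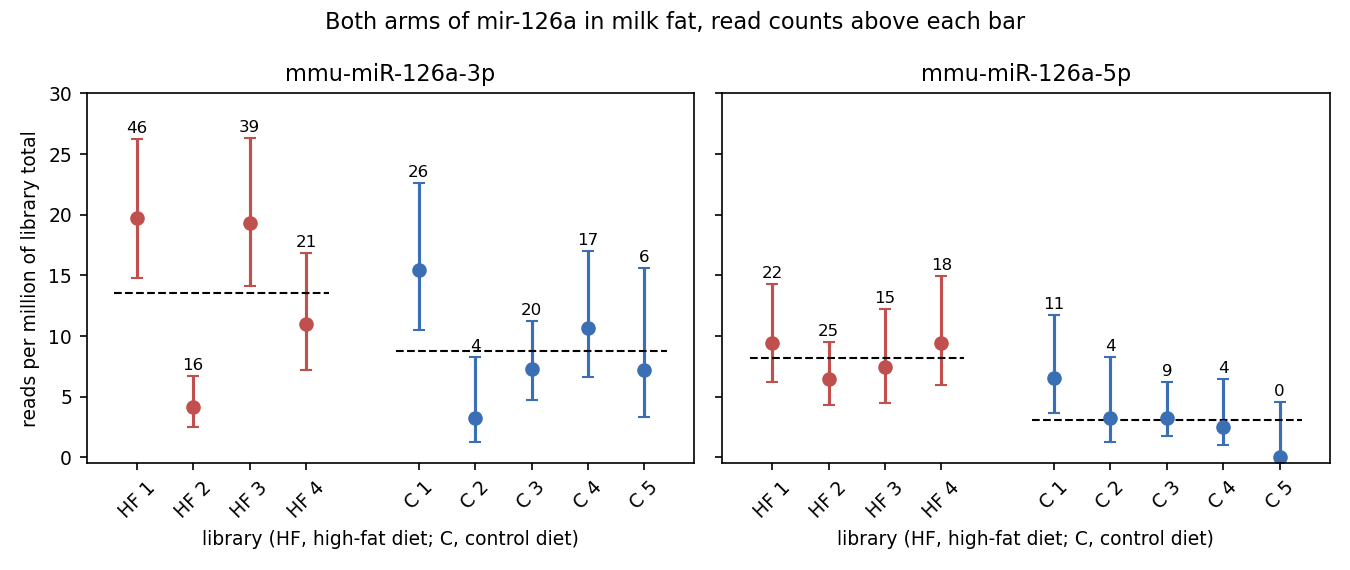
Level of miR-126a-3p (left panel) and miR-126a-5p (right panel) in RPM, for 4 high-fat (HF, red) and 5 control (C, blue) libraries. Points are libraries, bars are 95% Wilson intervals for counting error, dashed lines are group means and the numbers are read counts. The 3p arm runs from 4.11 to 19.7 in high-fat milk and from 3.21 to 15.4 in control milk, and the 5p arm from 6.42 to 9.44 and from 0 to 6.53.

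In high-fat milk only the 3p arm varied between dams by more than counting error alone would give, and in control milk both arms did. No test compared these spreads. The 3p arm averaged 13.5 ± 7.44 RPM in high-fat milk (SD, n = 4) and 8.74 ± 4.57 RPM in control milk (SD, n = 5), where counting error alone would give SDs of 2.26 and 2.54 RPM. Its 95% Wilson interval in high-fat library 1, 14.8 to 26.3 RPM, did not meet that in high-fat library 2, 2.53 to 6.67 RPM. The 5p arm averaged 8.17 ± 1.51 RPM in high-fat milk (SD, n = 4) and 3.10 ± 2.33 RPM in control milk (SD, n = 5), and counting error alone would give 1.83 and 1.57 RPM. In the 5p arm the high-fat dams differed by less than counting error alone would give. Wilson intervals, also those for 0 counts, cover counting error only.

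Both arms were minor members of the milk fat profile. Of 828 names with at least 1 count, miR-126a-3p ranked 273rd by its mean over the 9 libraries, 10.9 RPM, and miR-126a-5p ranked 314th at 5.36 RPM. The names next to the 3p arm, miR-26a-2-3p at 11.1 RPM and miR-130a-3p at 10.6 RPM, differed from it by far less than its SD of 6.13 RPM between libraries. The same held for the neighbours of the 5p arm, miR-144-3p at 5.37 RPM and miR-190a-3p at 5.27 RPM, against its SD of 3.27 RPM. RPM compares these names without a correction for how well each sequence is ligated.

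**Figure D2:**
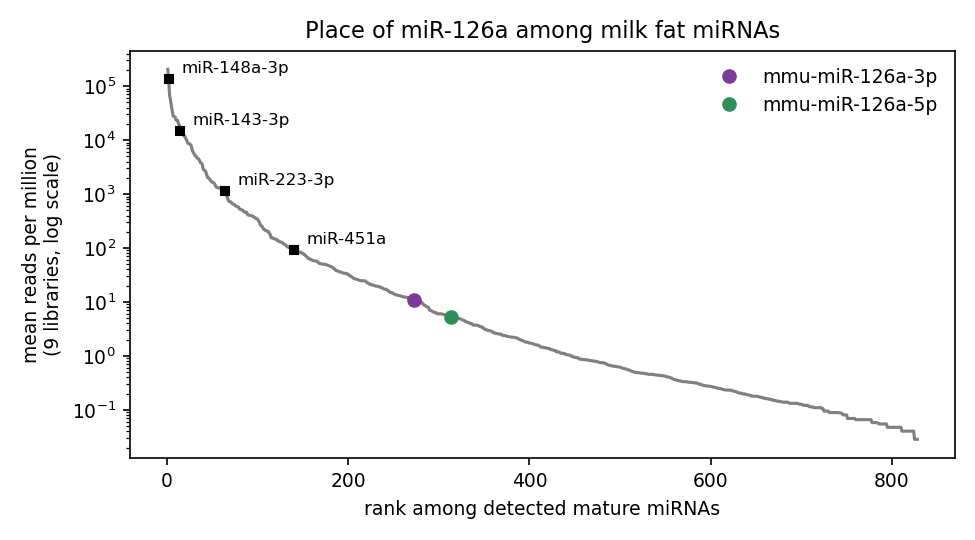
Mean level of every detected mature miRNA over the 9 libraries, in RPM on a log scale, against its rank. The coloured points mark miR-126a-3p at rank 273 and miR-126a-5p at rank 314 of 828, and black squares mark 4 miRNAs that stand for secretory epithelium (miR-148a-3p), stroma (miR-143-3p), myeloid cells (miR-223-3p) and red cells (miR-451a), all of which were more abundant.

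Of the lists of markers for other cells that milk or mammary tissue could contribute, those for secretory epithelium, stroma and leukocytes were above miR-126a in all 9 libraries, those for erythrocytes and liver in 8, and that for striated muscle in 2. Both arms together made 29.1, 10.5, 26.7 and 20.5 RPM in high-fat libraries 1 to 4, and 22.0, 6.43, 10.5, 13.1 and 7.16 RPM in control libraries 1 to 5. The summed secretory epithelium list, with 6 of 6 names detected, held 227427 to 249889 RPM in high-fat and 210768 to 251645 RPM in control milk. No second miRNA specific to endothelium was on the lists, so the endothelial label rests on miR-126a alone and was not checked further. In a bulk sample of this kind, fewer cells of a type and less RNA per cell cannot be told apart.

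The leukocyte list had 6 of 6 names detected and summed to 280 to 12222 RPM in high-fat milk, against 617 to 1035 RPM in control milk. High-fat libraries 1 and 3, which were highest in miR-126a-3p, held 12222 and 3513 RPM of it, and high-fat libraries 2 and 4 held 280 and 566 RPM. Within the high-fat group the order of the dams was therefore the same for the 3p arm and for the leukocyte list. Among controls it was not, since control library 5 had the highest leukocyte sum, 1035 RPM, and 7.16 RPM of miR-126a-3p. The part of blood cells in the level of miR-126a was not tested.

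The erythrocyte list, with 4 of 4 names detected, summed to 20.1 to 650 RPM in high-fat and 22.7 to 158 RPM in control milk, with its high value in high-fat library 3. The stromal and mural list, with 7 of 7 names detected, summed to 11747 to 25888 RPM in high-fat and 10459 to 19342 RPM in control milk. Nearly all of it was miR-143-3p, at 11360 to 25225 RPM in high-fat and 9913 to 18579 RPM in control milk. On the same list, miR-145a-5p had 273 to 486 RPM in high-fat and 343 to 543 RPM in control milk. Of 7 striated muscle names, miR-206-3p, miR-208a-3p and miR-208b-3p were at 0 in all libraries, and the list reached 97.9 RPM in high-fat library 3 against at most 13.7 RPM in any control. The single liver name, miR-122-5p, had 12.6 to 44.6 RPM in high-fat and 20.6 to 92.6 RPM in control milk.

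**Figure D3:**
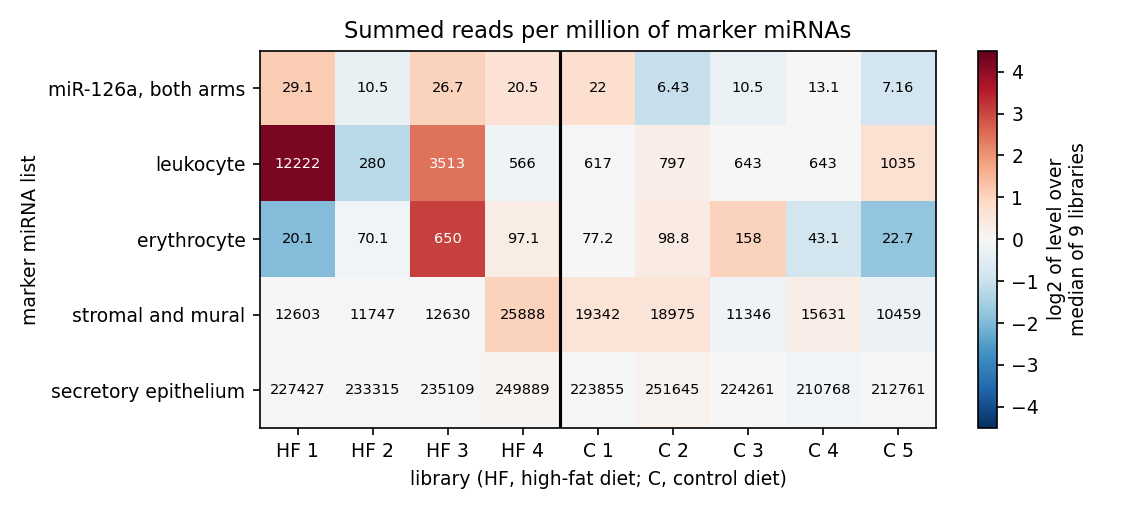
Summed level of 5 marker lists (rows) in each library (columns, high-fat left of the line and control right of it), with the RPM printed in each cell. Colour is the log2 of that level over the median of the 9 libraries. miR-126a spans 6.43 to 29.1 RPM, and the leukocyte list reaches 12222 RPM in high-fat library 1.

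The diet comparison asked whether miR-126a differed between milk of high-fat and control dams. Neither arm passed the test over all miRNAs. The 5p arm had the larger fold change, but it reached the filter on low counts in 4 high-fat libraries and only 1 control, so it was tested because it was high in one diet. miR-126a-5p had a log2 fold change of 1.56 ± 0.57 (SE) and miR-126a-3p one of 0.34 ± 0.60 by limma-voom, both in the direction of higher levels in high-fat milk. The adjusted p over 312 tested miRNAs was 0.389 for the 5p arm and 0.846 for the 3p arm by limma-voom, and 0% of the tested miRNAs passed an adjusted p of 0.05.

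The unadjusted limma-voom p of the 5p arm was 0.0200 and that of the 3p arm 0.577. Of all tested miRNAs, 10.3% had such a p below 0.05, and 4.49% had one together with a higher level in high-fat milk. The 5p arm reached the filter on low counts mainly through the high-fat libraries, so its place among the tested miRNAs is not given. The 95% interval of the log2 fold change ran from 0.30 to 2.82 for the 5p arm, and from -0.98 to 1.67 for the 3p arm, which holds both a 1.98-fold lower and a 3.19-fold higher level in high-fat milk.

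Control library 5 carried part of the 5p value. Its count of 0 enters the fit with a small offset, so the fitted fold depends on that offset, and without this library the log2 fold change was 1.04 ± 0.40, with an adjusted p of 0.465 by limma-voom. The 5p arm also reached the filter on low counts, 5.25 RPM in at least 4 libraries, in all 4 high-fat libraries and 1 control, so it was tested only because it was high in one diet. The 3p arm reached it in 3 high-fat and 4 control libraries. After scaling by trimmed mean of M values, high-fat library 2 held 6.60 CPM of the 5p arm and control library 1 held 6.33 CPM, so that all 4 high-fat libraries lay above the controls on that scale and not on the unscaled one.

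**Figure D4:**
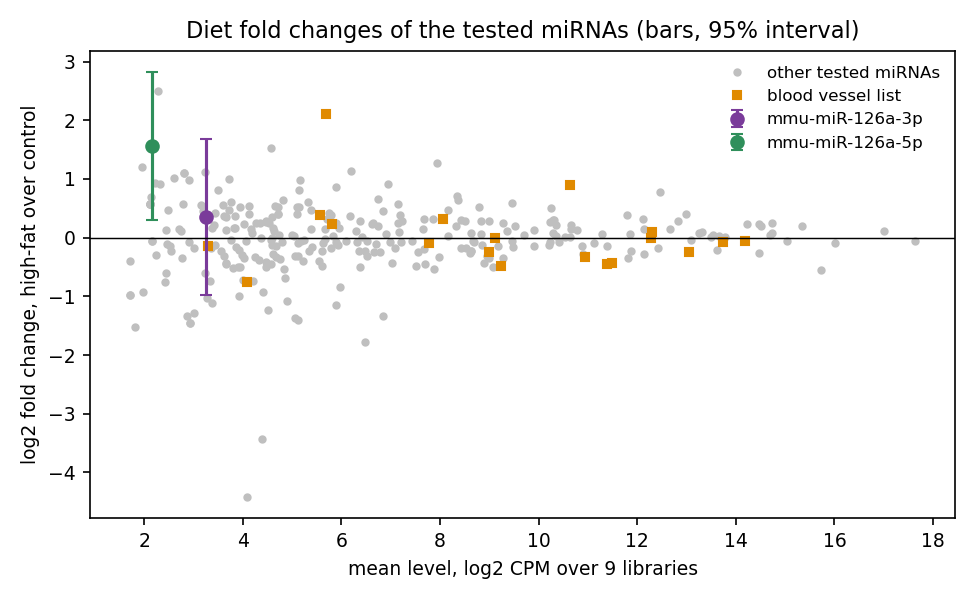
Log2 fold change of high-fat over control milk against the mean level in log2 CPM for the 312 tested miRNAs. Coloured points with 95% intervals are miR-126a-3p at 0.34 and miR-126a-5p at 1.56, orange squares are the 19 tested names of a blood vessel list, and grey points are all others. Both arms sit at the low end of the levels, and the interval of the 3p arm crosses 0.

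An exact permutation of diet labels over the 9 libraries was run on the unscaled levels. For miR-126a-5p the difference was 5.07 RPM, with a two-sided exact p of 0.0238, which was 0.0952 once adjusted for the 8 such tests. For miR-126a-3p it was 4.78 RPM, with an exact p of 0.222 and an adjusted p of 0.593. Without high-fat libraries 1 and 3, the difference of the 3p arm was -1.18 RPM and its log2 fold change was -0.36 ± 0.59. Those libraries held the highest 3p levels of all, 19.7 and 19.3 RPM, so leaving them out had to lower the difference. The change is given as a description only.

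The other 6 exact tests set each arm against a marker of another cell type within the same library, as a log2 ratio of counts with 0.5 added to each. Relative to miR-143-3p, which marks smooth muscle and pericytes, the 5p arm measured -10.75 ± 0.44 in high-fat milk (SD, n = 4) and -12.35 ± 1.03 in control milk (SD, n = 5), a difference of 1.60 with an exact p of 0.0238 and an adjusted p of 0.0952. Without control library 5, which had 0 counts of the 5p arm, this difference was 1.18, and with 1 count added instead of 0.5 it was 1.35. The 3p arm, with all libraries and 0.5 added, differed by 0.50, with an exact p of 0.460 and an adjusted p of 0.737. For miR-143-3p itself limma-voom gave a log2 fold change of 0.01 ± 0.29, with an adjusted p of 0.993.

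Ratios to blood cell markers varied far more between high-fat dams. Relative to miR-223-3p, a neutrophil miRNA, the 5p arm measured -5.35 ± 3.48 in high-fat milk (SD, n = 4) and -6.54 ± 1.86 in control milk (SD, n = 5), with an exact p of 0.571. Relative to miR-451a, a red cell miRNA, it measured -2.99 ± 2.20 in high-fat and -3.99 ± 0.73 in control milk, with an exact p of 0.389. For the 3p arm the differences were 0.09 against miR-223-3p and -0.10 against miR-451a, with exact p values of 0.968 and 0.944. After adjustment these 4 ratios had p values from 0.737 to 0.968 by the exact permutation test.

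The balance of the arms was read as the percentage of 3p counts among both arms. It was 67.6%, 39.0%, 72.2% and 53.8% in high-fat libraries 1 to 4, and 70.3%, 50%, 69.0%, 81.0% and 100% in control libraries 1 to 5. High-fat library 2 was the only one in which the 5p arm had more counts, and its 95% Wilson interval of 25.7% to 54.3% included an even balance. Control libraries 2 and 5 rest on 8 and 6 counts of both arms, with intervals of 21.5% to 78.5% and of 61.0% to 100%. Summed over libraries, the 3p arm had 122 of 202 counts in high-fat milk, or 60.4%, and 73 of 101 counts in control milk, or 72.3%, as a description that weights deep libraries most.

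As a log2 ratio of 3p to 5p counts with 0.5 added to each, the balance was 0.50 ± 0.89 in high-fat milk (SD, n = 4) and 1.59 ± 1.37 in control milk (SD, n = 5). The fitted difference was -1.10 ± 0.70 (SE), with a 95% interval from -2.65 to 0.46. Its adjusted p was 0.613 over 122 arm pairs by limma and its unadjusted p 0.146, while 0% of pairs passed an adjusted p of 0.05 and 5.74% an unadjusted p of 0.05. The difference was -0.57 without control library 5 and -1.50 without control library 2.

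**Figure D5:**
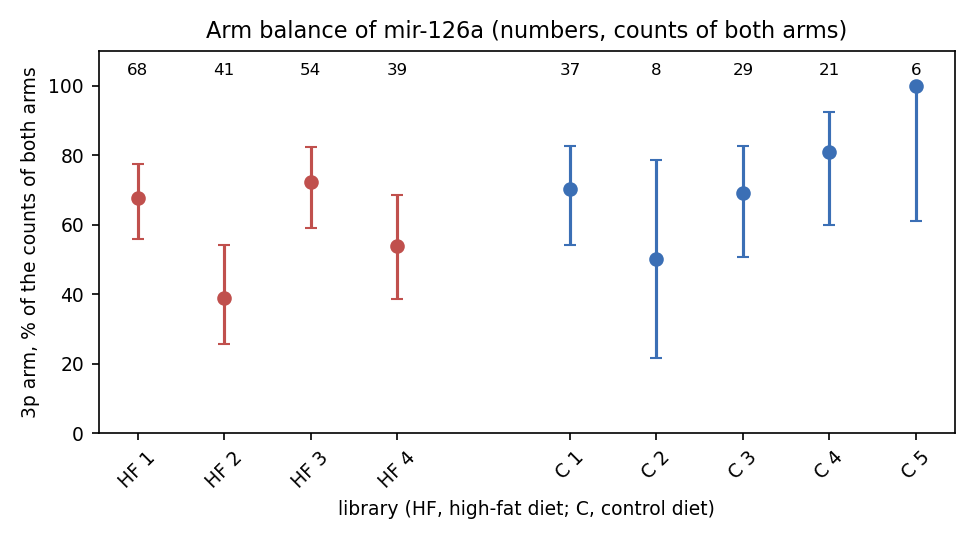
Percentage of 3p counts among the counts of both mir-126a arms in each library, with 95% Wilson intervals for counting error. High-fat libraries (HF, red) run from 39.0% to 72.2% and control libraries (C, blue) from 50% to 100%, and the printed numbers, 6 to 68, are the counts of both arms behind each point.

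Across the 9 libraries, how closely the arms of this one hairpin were related could not be settled. Libraries held 4 to 46 counts of the 3p arm and 0 to 25 of the 5p arm, and counting error alone can lower a correlation. The log2 level of the 5p arm had a Pearson r of 0.37 with that of the 3p arm (exact permutation p of 0.341) and a Spearman rho of 0.60 (exact permutation p of 0.0968). Without high-fat library 2 and control library 2, the farthest from the median in the 3p arm, r was 0.73. Among the 9 relations computed, the adjusted permutation p values of this one were 0.614 and 0.543. No correlation was computed within a diet, as each held fewer than 6 libraries.

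Levels of miR-126a-3p had an r of 0.57 and a rho of 0.40 with miR-223-3p (exact permutation p of 0.105 and 0.291, adjusted p of 0.475 and 0.605). Without high-fat libraries 1 and 2, r was 0.04, so this relation rests on them. Levels of the 5p arm had an r of 0.68 with the log2 library total (exact permutation p of 0.0495, adjusted p of 0.446) and a rho of 0.43 (exact permutation p of 0.250, adjusted p of 0.605). Without high-fat library 2 and control library 5, the deepest and the shallowest, r was 0.29. The other 6 relations, of each arm to miR-143-3p and miR-451a, of the 5p arm to miR-223-3p and of the 3p arm to the library total, had adjusted permutation p values from 0.534 to 0.983.

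The tested miRNAs most like each arm were taken as the 5 highest Spearman rho over the 9 libraries, as a description. For miR-126a-5p these were miR-10b-5p at 0.98, miR-15a-5p and miR-200a-3p at 0.87 each, miR-335-5p at 0.83 and miR-375-3p at 0.82. miR-10b-5p, from the Hoxd gene cluster, held 229, 92.9, 98.7 and 105 CPM in high-fat libraries 1 to 4, and 42.0, 34.3, 32.3, 29.4 and 7.13 CPM in control libraries 1 to 5. Its lowest value, like that of the 5p arm, was in control library 5. For miR-126a-3p they were miR-215-5p at 0.90, miR-186-5p at 0.87, miR-326-3p at 0.80, miR-15b-3p at 0.78 and miR-181d-5p at 0.72, and no name was on both lists. All these values share the same libraries and depths, and each rho was taken over both diets. The 5 names for the 5p arm had log2 fold changes from 0.24 to 2.51 by limma-voom, and those for the 3p arm from 0.04 to 1.00. A difference between the diets therefore enters these rho values.

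Other miRNAs with known roles in blood vessels were taken from a list of 20, of which 19 were tested. By limma-voom 0 of the 19 reached an adjusted p of 0.05, 7 had fold changes above 0 and 12 below, beside 158 and 154 of all 312 tested miRNAs. Their median log2 fold change was -0.07, beside 0.00 over all tested miRNAs. At an unadjusted p below 0.05 there were 5 of 19, beside 32 of 312, or 10.3%, over all tested miRNAs. The 5 include members of the same family, miR-10a-5p with miR-10b-5p and miR-23a-3p with miR-23b-3p, so they are not 5 separate results. Whether they exceed the share over all tested miRNAs was not tested. Higher in high-fat milk were miR-10b-5p with a log2 fold change of 2.11 ± 0.44 and miR-10a-5p with 0.89 ± 0.28, which promote vessel sprouting in zebrafish. Lower were miR-23a-3p with -0.45 ± 0.18, miR-23b-3p with -0.43 ± 0.17 and miR-222-3p, a brake on endothelial growth through Kit, with -0.48 ± 0.20. Adjusted p values of these 5 ran from 0.0996 to 0.436 by limma-voom.

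The 4 most abundant names of the vessel list were miR-27b-3p, miR-27a-3p, miR-378a-3p and miR-92a-3p. Their log2 fold changes were -0.05 ± 0.14, -0.07 ± 0.12, -0.24 ± 0.11 and -0.00 ± 0.25, with adjusted p values from 0.534 to 0.993 by limma-voom. All 4 are known from many cell types besides endothelium, and the list as a whole held 57784 to 65166 RPM in high-fat and 59267 to 69800 RPM in control milk.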

How the data were processed

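The submitters' processing notes name cutadapt 1.9.1 for adapter trimming and GRCm38 as the build. The aligner, the counter and the version of miRBase were not given in the sources used here. Read counts were deposited by the authors with comma separators in 833 cells, which were removed. Because of the separators the columns were not recorded as plain counts, although the values were whole numbers once these were removed. limma-voom was chosen as the main test for that reason, and count models were not run.

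The highest of several rows per mature name was kept. RPM is counts over the library total. Names with 10 counts, scaled to the median library, in at least 4 libraries and 15 in total were tested. limma 3.58.1 in R 4.3.3 fitted voom-weighted log2 CPM after scaling by trimmed mean of M values, with diet as the only term and Benjamini-Hochberg adjustment. Arm pairs with a mean of 5 counts in both arms were fitted with limma. Permutation tests were exact and two-sided. The fits were tested on simulated data, and alternatives are in the closing section. Replicates are dams.

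Named miRNAs were both members, the other hairpin of the locus, fixed cell type markers, the 5 names most like each arm, the neighbours in level and the top 4 of the vessel list, with the 5 of that list at an unadjusted p below 0.05 added after their values were seen. The members and lists were chosen with earlier results of these data known.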

Additional observations from a re-analysis of the deposited data

Results flagged for a closer look

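The 4 or 5 libraries of each diet were searched for one that stood apart, in 18 sets of values, and 1 was found, where chance gives about 1 in 20. The log2 ratio of miR-126a-3p to miR-143-3p was -12.3 in control library 2, below the other 4 controls, and this library held 4 counts of miR-126a-3p.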

How the results depend on the processing

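The 5p fold change, the 5p level, the arm balance and the 3 ratios of the 5p arm kept their direction. This held under every alternative that gave a value, and none passed an adjusted p of 0.05. For the 5p level and the 3 ratios, the threshold can decide little, because few permutations limit how small an exact p can be. With all libraries the smallest possible exact p was 0.0159 before adjustment. The lowest unadjusted exact p of these 5p values was 0.125 with the replicate block. It was 0.0476 without high-fat libraries 1 and 3. The sizes of the 5p ratios did not hold. When 1 library was left out, the ratio of the 5p arm to miR-223-3p ran from 0.09 to 2.62, with 1.18 for all libraries. Its ratio to miR-451a ran from 0.15 to 1.94, with 1.00 for all libraries. The lowest came without high-fat library 2 for miR-223-3p and without high-fat library 1 for miR-451a. Leaving out 1 library moved the log2 fold change of the 5p arm between 1.04 and 1.89 and that of the 3p arm between 0.06 and 0.90. Without high-fat libraries 1 and 3, the 5p arm did not pass the filter for limma-voom, and differed by 4.83 RPM in level, 1.30 in its ratio to miR-143-3p, 3.98 to miR-223-3p and 1.13 to miR-451a, each with an exact permutation adjusted p of 0.229. In the same setting the 3p arm reversed to -0.36 in log2 fold change, -1.18 RPM in level and -0.50 in its ratio to miR-143-3p. High-fat libraries 1 and 3 were the highest in the 3p arm, so a fall in these values was fixed in advance. The ratio of the 3p arm to miR-223-3p ran from -0.64 to 1.34 and that to miR-451a from -1.13 to 0.56 when 1 library was left out. The number of miRNAs past an adjusted p of 0.05, 0 of 312 by limma-voom with 32 at an unadjusted p below 0.05, was 4 with no filter on low counts, 4 with a stricter filter, under which neither arm was tested, 2 with library quality weights, 2 with limma-trend and 3 with the replicate block. It ran from 0 to 4 when 1 library was left out, with 4 without control library 5. Neither arm was among those called. The cause of these shifts was not tested.

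The replicate numbers did not pair the libraries, with correlations of deviations between -0.13 and 0.19. Control library 5 has no high-fat library of its number, so it adds nothing to a difference taken within replicate numbers. With the replicate block, the log2 fold changes were 1.01 for the 5p arm and 0.58 for the 3p arm. The 3p ratios to miR-223-3p and miR-451a were then -0.17 and 0.37, the same as without control library 5. The quasi-likelihood and Wald count models planned as alternatives were not run. The arm balance had no value among pairs with a mean of 20 or more counts. With 0 to 46 counts per library, depth limits every value given for miR-126a.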
